A study of Mus musculus with 9 samples.

Results

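The cytosolic ribosomal protein genes were followed in injured mouse lung, as the genes whose symbol begins with Rpl or Rps followed by a number, with at most 1 closing letter a, l or x, together with Rplp0, Rplp1, Rplp2 and Rpsa. This rule took 83 of the 52381 genes of the deposited table, 51 of the large and 32 of the small subunit, and no symbol among them was repeated. RNA was sequenced from lungs injured by lipopolysaccharide (LPS, a bacterial cell wall component that causes acute lung injury). In 5 of the mice the injury was combined with TMAO (trimethylamine-N-oxide, a metabolite that gut bacteria help to form), called TMAO 1 to 5 below. The other group was 4 mice with LPS injury and no TMAO, called LPS-ALI 1 to 4. All 9 mice carried the LPS injury and no uninjured lung was among them, and the labels give no strain, sex, age, dose, route or time. The comparison addresses how lung gene expression differs with TMAO among mice with LPS injury, and the labels do not say which was given first.

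A ribosome is built from a large and a small subunit, and each ribosomal protein is used in a single copy in nearly every ribosome, with the acidic stalk proteins as the known exception. Ribosomal protein mRNAs begin with a terminal oligopyrimidine (TOP) tract, a cytosine followed by a run of pyrimidines, through which mTORC1 and the RNA-binding protein Larp1 set their translation and stability together. In lung, every cell type needs them, and in immune cells and epithelium their mRNAs are among the most abundant of all.

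The values are FPKM, fragment numbers scaled to gene length and to the size of the library, so levels can be set side by side between genes as per-length levels. In tests they were used as log2(FPKM + 1), and differences are TMAO-treated minus LPS-ALI lungs. A gene was tested where it reached 1 FPKM in at least 4 libraries, which 11817 genes did. Of the 83 ribosomal protein genes, 78 were tested, 46 of the large and all 32 of the small subunit.

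The libraries did not share 1 profile. Their relative depth, read from the spacing of low values, was 0.379 to 0.679 of the deepest library in the TMAO-treated group and 0.492 to 1.00 in the LPS-ALI group, with TMAO 5 the shallowest. TMAO 5 had 8846 genes at 1 FPKM or more, against 11158 to 12239 in the other TMAO-treated lungs and 11575 to 11879 in the LPS-ALI lungs. Mitochondrially encoded genes held 35.9% to 52.2% of the FPKM in TMAO-treated lungs and 33.4% to 48.1% in LPS-ALI lungs. The wording of the extraction protocol in the labels names platelets although the tissue is labelled lung. The 8 alveolar type 2 markers summed to 4923 to 11070.2 FPKM in TMAO-treated lungs and 1288 to 14778 FPKM in LPS-ALI lungs, and the 10 platelet genes to 19.4 to 27.9 FPKM in TMAO-treated lungs and 32.4 to 77.9 FPKM in LPS-ALI lungs. LPS-ALI 3 and 4 carry a library code with another first letter than the rest, which the labels do not explain. LPS-ALI 4 also had the lowest alveolar type 2 sum and the highest erythroid sum, 2327 FPKM over the 7 of 8 listed erythroid genes that are in the table, against 124 to 291 FPKM in the TMAO-treated lungs.

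Ribosomal protein mRNAs were abundant in every lung. Of the 83 genes, 75 averaged at least 100 FPKM over the 9 libraries and 13 averaged at least 1000 FPKM. The median tested gene of the large subunit averaged 617 FPKM and that of the small subunit 741 FPKM, against 6.53 FPKM for the median of all tested genes. The level of the whole group moved from mouse to mouse. The 83 genes together held 3.61%, 4.24%, 4.13%, 5.66% and 4.47% of the FPKM in TMAO 1 to 5, against 5.17%, 4.57%, 3.46% and 7.27% in LPS-ALI 1 to 4. The groups overlapped, with means of 4.42% ± 0.76 in TMAO-treated lungs (SD, n = 5) and 5.12% ± 1.6 in LPS-ALI lungs (SD, n = 4). LPS-ALI 4 gave the highest value for 51 of the 78 tested genes and TMAO 5 for 25, while TMAO 1 and LPS-ALI 3 each gave the lowest for 30. With LPS-ALI 4 left out the difference in this share was 0.024 percentage points in the other direction, against -0.694 with all 9 libraries.

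**Figure D1:**
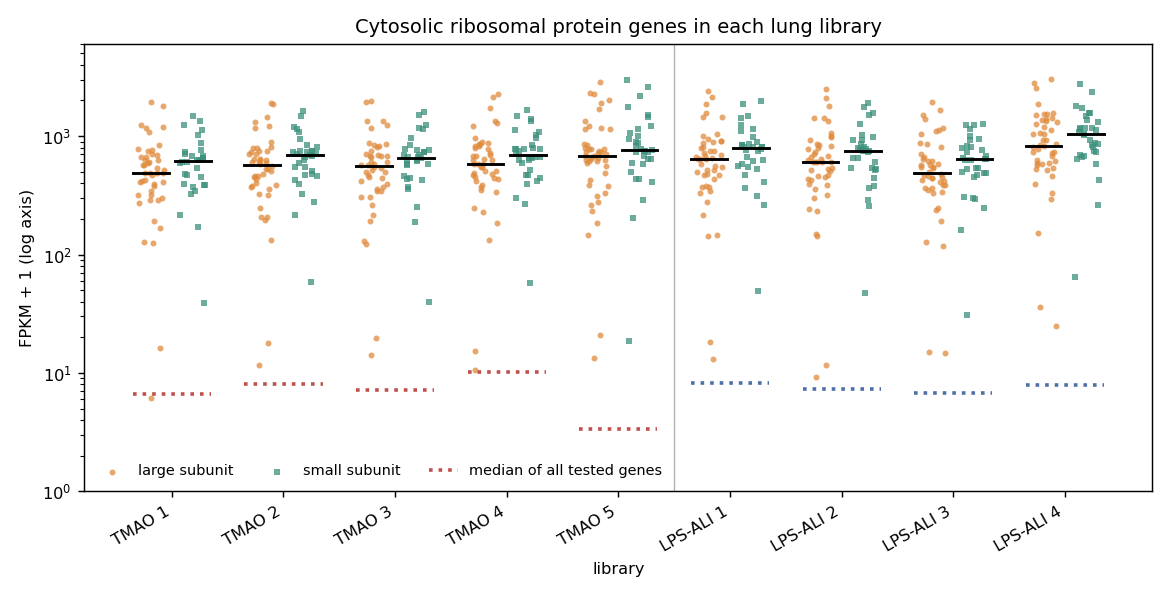
FPKM + 1 of the 78 tested ribosomal protein genes (log axis) in the 5 TMAO-treated and the 4 LPS-ALI libraries, with circles for the large and squares for the small subunit, black bars for their medians, and dotted lines for the median of all tested genes. The small-subunit median lies above the large-subunit median in every library, LPS-ALI 4 has the highest medians, and in TMAO 5 the median of all tested genes is lower than elsewhere while the ribosomal protein genes are not.

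The order of the genes within a library was alike from mouse to mouse. Spearman's rho between the 78 levels of any 2 of the 9 libraries was 0.824 to 0.993, a description over genes that share their libraries. Rpl41, the shortest ribosomal protein with a coding length of 75 bp, had the highest mean per-length level over the 9 libraries, 1929, 1906, 1949, 2247 and 2847 FPKM in TMAO 1 to 5 and 2389.65, 2476, 1648 and 3026 FPKM in LPS-ALI 1 to 4. Rpl13a, which in human myeloid cells also leaves the ribosome to silence inflammatory mRNAs, came next by that mean and was above Rpl41 in TMAO 3 and LPS-ALI 3, as Rps27 was in TMAO 5. Rpl13a averaged 2022 ± 198 FPKM in TMAO-treated lungs and 2242 ± 388 FPKM in LPS-ALI lungs, and the groups overlapped. In the large subunit Rplp1 and Rpl23a also averaged over 1000 FPKM, with overall means of 1732 and 1383 FPKM. Rplp1 is a stalk protein and Rpl23a lies at the tunnel exit, where nascent chains leave. In the small subunit Rps24, Rps27, Rps29, Rps15 and Rps14 led with means of 1824, 1772, 1528, 1345 and 1231 FPKM. None of these genes had groups that stood apart.

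The small subunit stood above the large one in each of the 9 lungs. The median large-subunit gene minus the median small-subunit gene was -0.33, -0.28, -0.24, -0.23 and -0.16 on the log2 scale in TMAO 1 to 5, against -0.29, -0.31, -0.38 and -0.31 in LPS-ALI 1 to 4. The gap averaged -0.25 ± 0.06 in TMAO-treated lungs (SD, n = 5) and -0.32 ± 0.04 in LPS-ALI lungs (SD, n = 4), a difference of 0.08. The 2 ranges overlapped, through TMAO 1. With near-identical copies added to each gene the gap averaged -0.22 in TMAO-treated lungs and -0.25 in LPS-ALI lungs, a difference of 0.035. No test was made of this score, because the genes were chosen with earlier results known.

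Between TMAO-treated and LPS-ALI lungs no ribosomal protein gene passed the test. At a limma adjusted p under 0.05 the count was 0 of 78, beside 0.0% of the 11817 tested genes, and the smallest adjusted p of a ribosomal protein gene was 0.998. At an unadjusted p under 0.05 the count was again 0 of 78, beside 3.35% of all tested genes, 2.93% lower and 0.423% higher in TMAO-treated lungs. The differences were small, between -0.57 and 0.08 on the log2 scale, and 77 of the 78 were within 0.5 of 0. The exception was Rpl12 at -0.57, which was at -0.22 without LPS-ALI 4 and -0.77 without TMAO 5. The fitted difference was below 0 for 71 of 78 genes, against 72.1% of all tested genes. The median difference was -0.18 for the 46 large-subunit genes, -0.16 for the 32 small-subunit genes and -0.17 for all tested genes. Leaving out single libraries moved the large-subunit median between -0.27 and -0.03 and the small-subunit median between -0.26 and -0.06. Relative to the median tested gene, 40 ribosomal protein genes lay above 0 and 38 below, with a median of -0.01 for the large and 0.01 for the small subunit. In bulk lung, fewer cells of a type and less RNA per cell cannot be told apart.

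**Figure D2:**
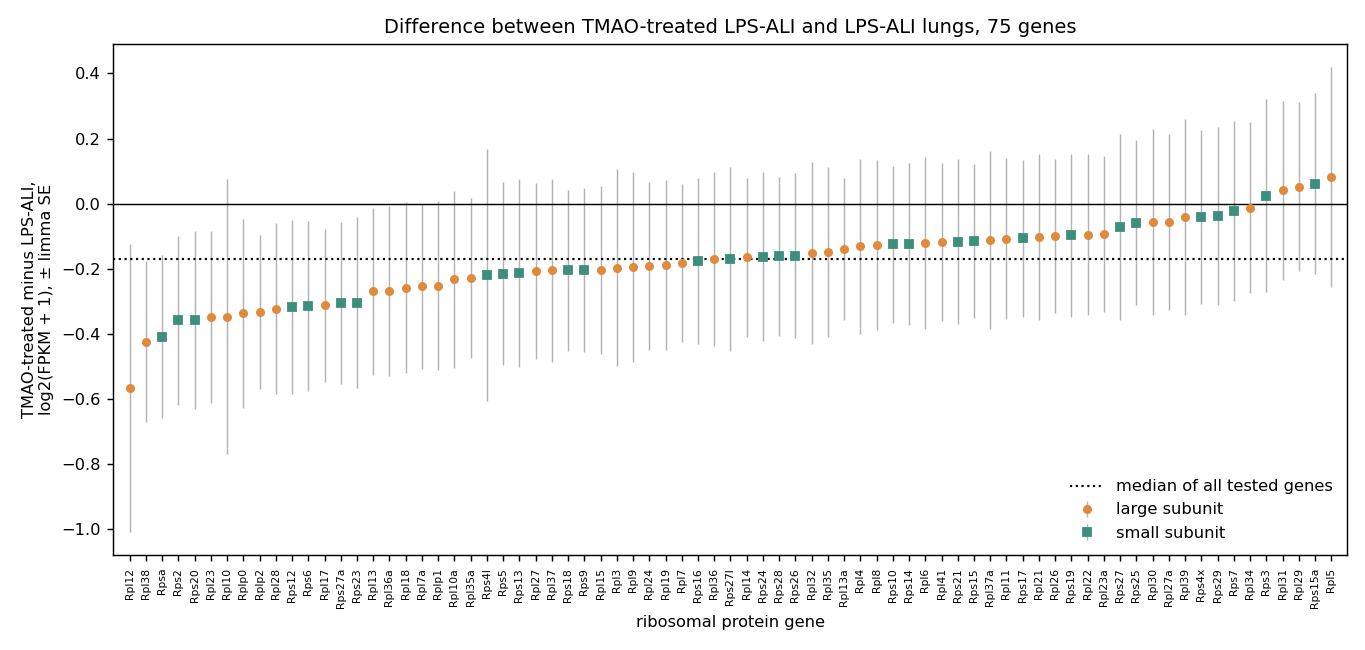
Difference between TMAO-treated and LPS-ALI lungs in log2(FPKM + 1) for 75 tested ribosomal protein genes, ordered by size, with the limma standard error as bars, and the median of all tested genes as a dotted line. Genes of both subunits are mixed along the order, from Rpl12 at -0.57 to Rpl5 at 0.08.

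That reading depended on which libraries were included. In TMAO 5 the median ribosomal protein gene lay 7.77 log2 units above the median of all tested genes in that library, against 5.99 to 6.39 in the other TMAO-treated lungs and 6.31 to 6.83 in the LPS-ALI lungs. Without TMAO 5, 76 of 78 genes had a difference below 0, against 43.6% of 11726 tested genes. Over the same 11817 genes the median relative to the median gene was then -0.29 for the large and -0.30 for the small subunit. In that fit 3 ribosomal protein genes, Rpl38 and Rpl28 among them, had an unadjusted p under 0.05, each lower, beside 2.94% of all genes, and the smallest adjusted p by limma was 0.688. Without TMAO 5, 10 genes were lower with no overlap between the groups, beside 1.76% of all genes, and 0 were higher, beside 2.93%. Without LPS-ALI 4 the fitted difference was below 0 for 46 of 78 genes, beside 69.5% of 11608, and the relative medians were 0.10 and 0.07. With both left out they were -0.18 and -0.22, and 10 genes were lower and 1 higher with no overlap, beside 2.66% and 6.04% of all genes. Without the differently coded libraries LPS-ALI 3 and 4, 6 were lower and 1 higher with no overlap, beside 5.98% and 0.474%. Without TMAO 4, with genes filtered anew, the relative medians were 0.11 for the large and 0.14 for the small subunit. The direction relative to other genes therefore depended on the library left out, most of all on TMAO 5. No ribosomal protein gene passed the adjusted threshold in any of these fits.

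Spread between mice was lower for these genes than for other abundant genes. The within-group SD of log2(FPKM + 1) had a median of 0.28 over the 78 genes, against 0.55 over the 535 other nuclear genes with a mean of at least 100 FPKM, a description with no test. The median limma standard error was 0.26 for ribosomal protein genes and 0.38 for all tested genes.

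Few ribosomal protein genes had groups that stood apart. The count of genes with no overlap between the groups was 2 of 78 lower in TMAO-treated lungs, Rplp2 among them, beside 1.36% of all tested genes, and 0 of 78 higher, beside 0.118%. Rplp2, the acidic protein P2 of the stalk that recruits elongation factors (ENSMUSG00000025508, chr7:141447370-141451585, plus strand, GRCm38), had 777, 796, 875, 876 and 840.5 FPKM in TMAO 1 to 5, against 878, 918, 1094 and 1366 FPKM in LPS-ALI 1 to 4. The groups did not overlap, but TMAO 3, TMAO 4 and LPS-ALI 1 were nearly level. The log2 difference was -0.33 ± 0.24 (limma SE), and exact permutation, two-sided, gave p = 0.0159, the smallest that 5 against 4 libraries allow, beside a limma adjusted p of 0.998. Any gene whose groups do not overlap gets this permutation p, so it adds nothing to the lack of overlap. Over all alternative settings the difference kept its direction, between -0.42 and -0.09. The groups overlapped after rescaling to TPM, median-of-ratios scaling, quantile normalization, removal of mitochondrial genes or division by the median ribosomal protein gene. The difference was -0.11 without the libraries LPS-ALI 3 and 4, with no overlap there either. The other stalk proteins did not stand apart. Rplp0, the scaffold of the stalk, had 630.0 to 820 FPKM in TMAO-treated lungs and 572 to 1547 FPKM in LPS-ALI lungs. Its difference was -0.34 with all libraries, -0.06 without LPS-ALI 4 and -0.33 without TMAO 5. Rplp1, the other acidic stalk protein, had 1239 to 2247 FPKM in TMAO-treated lungs and 1407 to 2527 FPKM in LPS-ALI lungs.

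Marker sums of some other cell types differed between the groups. The 12 T and NK cell markers summed to 14.8 to 25.5 FPKM in TMAO-treated lungs and 39.4 to 92.0 FPKM in LPS-ALI lungs, and the 8 B and plasma cell markers to 2.84 to 6.24 FPKM in TMAO-treated lungs and 11.2 to 18.2 FPKM in LPS-ALI lungs. The platelet sums given above did not overlap either, and no marker of these lists was at 0 in all 9 libraries. Taken relative to the median tested gene, the mean of the tested markers overlapped between the groups for each of these lists. It rested on 5 of 12 T and NK, 2 of 8 B and plasma and 5 of 10 platelet markers. Neutrophil sums overlapped, at 7877 to 14800 FPKM in TMAO-treated and 7886 to 21195 FPKM in LPS-ALI lungs. Endothelial, alveolar type 2, erythroid and proliferating cell sums overlapped too. The part of any cell type in the lower values of Rplp2 was not tested.

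Rpl38, Rpsa and Rps2 were also among the lower genes with the smallest unadjusted p. Rpsa (chr9:120127689-120132369), which sits where mRNA leaves the small subunit and was first described as a laminin receptor, had 373, 428, 432, 521 and 407 FPKM in TMAO 1 to 5, against 543, 536, 496 and 732 FPKM in LPS-ALI 1 to 4. TMAO 4 lay above LPS-ALI 3, so the groups overlapped by that pair, and the difference was -0.41 ± 0.25 (limma SE; exact permutation p = 0.0317). Rpl38 (chr11:114668524-114672331), whose loss in mice alters the translation of Hox mRNAs, had 833, 892, 804, 969 and 1153 FPKM in TMAO 1 to 5, against 1042, 997, 1512 and 1494 FPKM in LPS-ALI 1 to 4. Only TMAO 5 reached into the LPS-ALI range, and the difference was -0.42 with all libraries, -0.50 without TMAO 5 and -0.14 without LPS-ALI 3 and 4. Rps2, at the entry of the mRNA channel, had 747 to 1074 FPKM in TMAO-treated lungs and 808 to 1577 FPKM in LPS-ALI lungs. Its difference was -0.36 with all libraries, -0.18 without LPS-ALI 4 and -0.31 without TMAO 5.

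By exact permutation 4 of the 78 genes were lower at an unadjusted p under 0.05, beside 3.93% of all tested genes, and 0 were higher, beside 0.389%. Rplp2, Rpsa and Rpl17 were among the lower ones, and Rpl17, named after its values were seen, was at an exact p of 0.0476. This protein of the tunnel exit had 607 to 792 FPKM in TMAO-treated lungs and 772 to 1033 FPKM in LPS-ALI lungs. Its difference was -0.31, and TMAO 5 was the TMAO-treated lung within the LPS-ALI range.

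**Figure D3:**
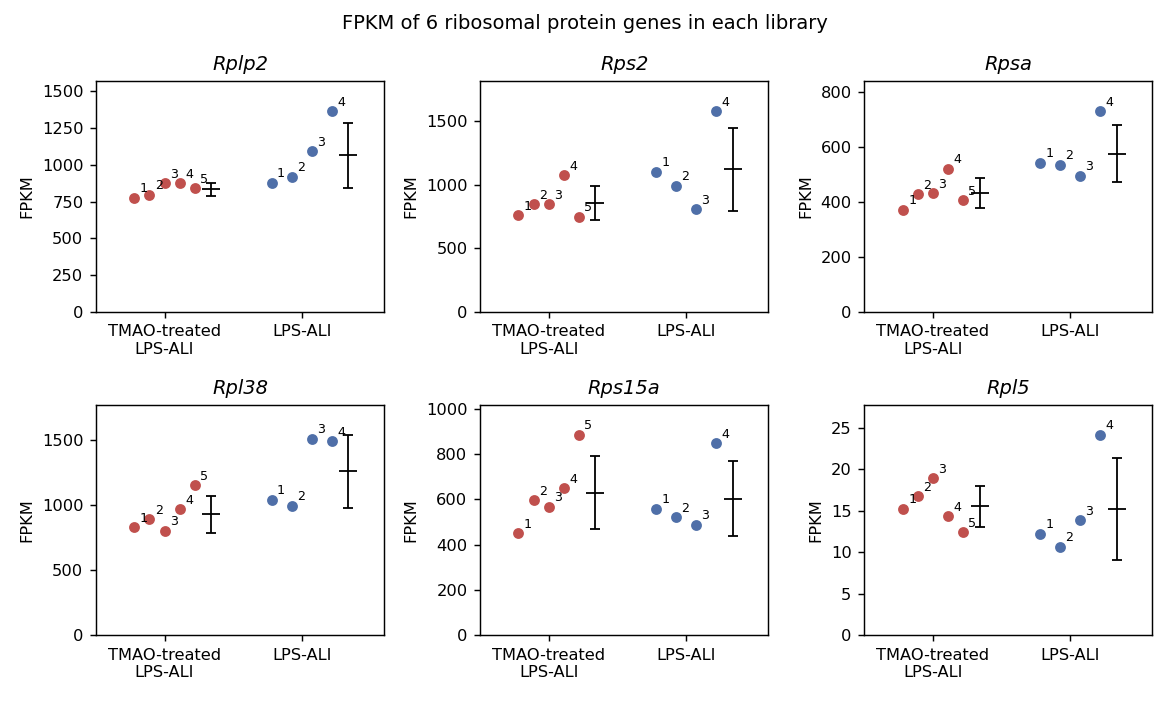
FPKM of Rplp2, Rps2, Rpsa, Rpl38, Rps15a and Rpl5 in each library, numbered by mouse, with the mean and SD of the 5 TMAO-treated and the 4 LPS-ALI lungs in black. Rplp2 has no overlap between the groups, Rpsa and Rpl38 overlap through TMAO 4 and TMAO 5, Rps2 overlaps through several mice, and Rps15a and Rpl5 are mixed between the groups.

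On the other side only 7 of the 78 genes had a difference above 0, and none reached 0.1. Among those with the smallest unadjusted p were Rpl5, Rps15a, Rpl29 and Rpl31, with differences of 0.08, 0.06, 0.05 and 0.04. Rps15a, a protein of the small-subunit body, had 451, 595, 568.26, 649.6 and 885 FPKM in TMAO 1 to 5, against 559, 520.1, 489 and 846 FPKM in LPS-ALI 1 to 4. The groups were mixed, and TMAO 5 and LPS-ALI 4 held the high ends. Without TMAO 5 the differences of Rps15a, Rpl29 and Rpl31 were below 0, at -0.07, -0.0031 and -0.11. Rpl5 kept its direction there but has a near-identical copy with far higher values, described below.

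Grouped by place in the ribosome, every set had 0 genes past the threshold. The L1 stalk and tRNA sites, where tRNAs are held and released, had a median difference of -0.25 over 4 genes. The exit tunnel and its rim had -0.14 over 10 genes, 9 of them below 0, from Rpl38 at -0.42 to Rpl31 at 0.04. The mRNA entry and exit sites of the small subunit had -0.16 over 6 genes and the decoding centre and head -0.15 over 10 genes, all 10 below 0. The 5 genes that bind 5S rRNA or act on p53 had a median of -0.11, against -0.17 for all tested genes. Among these Rpl11, which with Rpl5 and 5S rRNA holds Mdm2 in check, had 492 to 594 FPKM in TMAO-treated lungs and 453 to 738 FPKM in LPS-ALI lungs. Rpl23, another Mdm2 binder, had 489 to 634 FPKM in TMAO-treated lungs and 536 to 1057 FPKM in LPS-ALI lungs. Rpl26, which binds p53 mRNA, had 1078 to 1703 FPKM in TMAO-treated lungs and 1122 to 1567 FPKM in LPS-ALI lungs. All 3 overlapped between the groups. Without LPS-ALI 4 the medians of these sets, in the order given, were -0.04, -0.03, -0.07, -0.08 and -0.03. Without TMAO 5 they were -0.30, -0.24, -0.25, -0.27 and -0.17.

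Genes with roles beyond the ribosome overlapped between the groups as well. Rps6, whose phosphorylation by S6 kinase is the usual readout of mTORC1, had 649, 744, 729.5, 777 and 578 FPKM in TMAO 1 to 5, against 803, 764, 682 and 1310 FPKM in LPS-ALI 1 to 4. The difference of -0.31 became -0.05 without TMAO 5 and LPS-ALI 4. Rps27a, made as a fusion with ubiquitin, had 598 to 732 FPKM in TMAO-treated lungs and 655 to 1152 FPKM in LPS-ALI lungs. Its difference was -0.31 with all libraries, -0.14 without LPS-ALI 4 and -0.34 without TMAO 5. Rps3, which also binds NF-κB p65 in human cells, had 343 to 436 FPKM in TMAO-treated lungs and 245 to 661 FPKM in LPS-ALI lungs, a difference of 0.03 with all libraries, 0.29 without LPS-ALI 4 and -0.015 without TMAO 5. The 23 mouse genes whose human counterparts are mutated in Diamond-Blackfan anaemia, a failure of red cell formation, had a median of -0.13. Of these, 20 were below 0, and the median was -0.03 without LPS-ALI 4 and -0.23 without TMAO 5. The 4 X-linked genes Rpl10, Rpl36a, Rpl39 and Rps4x had a median of -0.15, all 4 below 0. Their median was 0.12 without LPS-ALI 4 and -0.29 without TMAO 5.

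Most tissue-restricted and duplicated relatives were nearly silent. Rpl3l, the striated muscle form of Rpl3, had at most 0.62 FPKM in TMAO-treated and 0.76 FPKM in LPS-ALI lungs. Rpl39l, the testis form of Rpl39, had at most 0.17 FPKM in TMAO-treated and 0.21 FPKM in LPS-ALI lungs. Rpl10l, the testis form of Rpl10, and the processed pseudogenes Rpl6l and Rpl32l were listed at 0 in all 9 libraries. Rps27l, a p53-induced relative of Rps27, was expressed in every lung, with 170, 213, 186, 265 and 204 FPKM in TMAO 1 to 5, against 263, 257, 159 and 263 FPKM in LPS-ALI 1 to 4. LPS-ALI 3 was low and the groups overlapped. Rps4l, annotated as a transcribed processed pseudogene, had 17.75 to 58.2 FPKM in TMAO-treated lungs and 29.7 to 63.3 FPKM in LPS-ALI lungs.

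Near-identical copies limit what a single symbol says. In GENCODE M21 transcripts, the median ribosomal protein gene that was tested shared 54.5% of its 50-base stretches with other genes, and 46 of 78 shared more than 50%. Of the 78 genes, 42 had at least 1 copy that shared 25% or more of these stretches and averaged 1 FPKM or more, and 21 had one at 100 FPKM or more. Rpl5 had only 15.3, 16.8, 18.9, 14.3 and 12.4 FPKM in TMAO 1 to 5, against 12.2, 10.7, 13.9 and 24.1 FPKM in LPS-ALI 1 to 4, while its processed copy Gm15500 had 378 to 475 FPKM in TMAO-treated lungs and 306 to 637 FPKM in LPS-ALI lungs. Rpl12, a protein of the stalk base, had 5.11 to 19.7 FPKM in TMAO-treated lungs and 8.34 to 34.8 FPKM in LPS-ALI lungs, while its copy Gm10275 had 566 to 759 FPKM in TMAO-treated lungs and 706 to 1190.1 FPKM in LPS-ALI lungs. Rpl5 and Rpl12 had the lowest means of the tested genes. How fragments that fit both a gene and its copy were counted is not stated in the labels, and its part in these low values was not tested.

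Rpl10, next to the tRNA sites of the large subunit, was high in a single library. It had 125, 193, 129, 183 and 144 FPKM in TMAO 1 to 5, against 142, 142, 117 and 596 FPKM in LPS-ALI 1 to 4. LPS-ALI 4 alone stood high, while the copy Rpl10-ps3, which shares 92.1% of the 50-base stretches of Rpl10, had 882 FPKM there and 672 to 966 FPKM in the other LPS-ALI lungs. With copies added to each gene, their FPKM scaled by exon length, the difference of Rpl5 was -0.09.

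TMAO 5 differed from the other libraries in which ribosomal protein genes were high. For each gene the deviation from its own mean over the 9 libraries was set beside its coding length, over 77 protein-coding genes. Spearman's rho was -0.72 in TMAO 5, against 0.37 to 0.52 in the other TMAO-treated lungs and -0.20 to 0.43 in the LPS-ALI lungs. The 25 shortest genes, with coding lengths up to 396 bp, exceeded the 25 longest, of 576 bp or more, by 0.58 log2 units in TMAO 5. In the other TMAO-treated lungs this contrast was -0.14 to -0.08, and in the LPS-ALI lungs -0.25 to 0.13. Over all 11071 tested protein-coding genes, rho with coding length was -0.31 in TMAO 5, 0.15 to 0.35 in the other TMAO-treated lungs and -0.18 to 0.16 in the LPS-ALI lungs. The points share their library and its normalization, so these are descriptions with no test. Each gene's mean includes TMAO 5, so a high value there lowers that gene's deviations in the other libraries.

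Single genes show the pattern. Rps27, a zinc-finger protein of the small subunit with a short coding sequence, had 1328, 1489, 1495, 1473 and 2967 FPKM in TMAO 1 to 5, against 1863, 1744, 1236 and 2355 FPKM in LPS-ALI 1 to 4. TMAO 5 was the highest of the 9. Rps29, with a coding length of 168 bp, had 1196 to 1387 FPKM in TMAO 1 to 4, 2619 FPKM in TMAO 5 and 1265 to 1805 FPKM in LPS-ALI lungs. Rpl4, the longest tested at 1257 bp, had 392, 436, 439, 474 and 311 FPKM in TMAO 1 to 5, against 469, 425, 332 and 591 FPKM in LPS-ALI 1 to 4, so that TMAO 5 was the lowest of the 9. Whether RNA quality, depth or library making set this order in TMAO 5 was not tested.

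**Figure D4:**
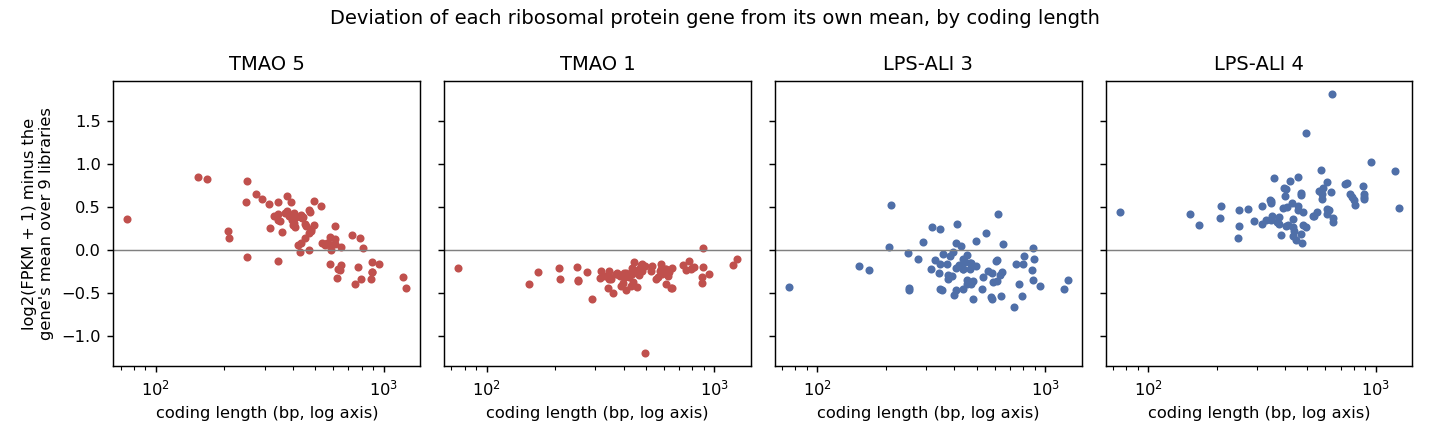
Deviation of each of 77 ribosomal protein genes from its own mean log2(FPKM + 1) over the 9 libraries, against its coding length (log axis), in TMAO 5, TMAO 1, LPS-ALI 3 and LPS-ALI 4. In TMAO 5 short genes lie above and long genes below their mean (rho -0.72), in TMAO 1 nearly all lie below it, and in LPS-ALI 4 nearly all lie above it.

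The start of the gene is shown because these mRNAs share the TOP tract. RefSeq start windows (GRCm38.p6) were matched by symbol for 57 of the 78 tested genes. The 30 bases around the start, 15 before and 15 from it on, are shown for 4 lower and 3 higher genes named above by unadjusted p, with the longest run of C and T in the window in capitals.
Rplp2 (chr7:141447636-141447665, plus strand): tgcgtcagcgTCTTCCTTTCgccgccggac
Rpl38 (chr11:114668565-114668594, plus strand): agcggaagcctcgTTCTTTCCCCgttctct
Rpsa (chr9:120127751-120127780, plus strand): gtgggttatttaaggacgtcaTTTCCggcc
Rps2 (chr17:24720048-24720077, plus strand): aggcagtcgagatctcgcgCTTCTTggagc
Rps15a (chr7:118116133-118116162, minus strand): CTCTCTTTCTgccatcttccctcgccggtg
Rpl31 (chr1:39367836-39367865, plus strand): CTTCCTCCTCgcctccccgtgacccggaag
Rpl5 (chr5:107900513-107900542, plus strand): TCTCacgtcgcttgcgtgctggtggtgcta

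In Rplp2 and Rpl38 the longest run spans the annotated start. In Rps2 a run of 4 bases spans the start, and the longest, of 6 bases, lies after it. In Rpsa no run spans the start, and the longest has 5 bases. In Rps15a and Rpl31 the longest run lies at the upstream edge of the window. A further run, of 9 bases in Rps15a and 7 in Rpl31, spans the start. In Rpl5 no run in the window exceeds 4 bases. A run of at least 7 pyrimidines in this window was present for 29 of 57 ribosomal protein genes, or 50.9%, against 18.5% of the 27025 promoters with 1 entry taken per symbol. The 29 genes with such a run had a median difference of -0.16 between TMAO-treated and LPS-ALI lungs, and the 28 without had -0.18. A run counted anywhere in the window of 1 annotated start per symbol, so the 28 are not shown to lack a TOP tract. The ETS family core CCGGAAG, searched on both strands from 250 bases before to 50 bases after the start, was in 23 of 57 windows, or 40.4%, against 9.12% of all promoters. The YY1 core AAGATGGC was in 4 of 57, or 7.02%, against 2.88%. The motifs can overlap by the letters AAG, and a match is a description of letters only.

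Other parts of the translation machinery were set beside these genes. A further 9 genes, listed with the ribosomal proteins, are not reached by the symbol rule, such as Fau and Rack1. Among them is Rps19bp1, whose symbol names a binding protein of Rps19 and not a ribosomal protein. Of the 9, 0 passed the threshold and 7 had differences below 0. Lower with no overlap were 3, Rps19bp1 included, beside 1.36% of all tested genes. The median of the 9 was -0.27 with all libraries, -0.10 without LPS-ALI 4 and -0.24 without TMAO 5. Rpl36al, a near relative of Rpl36a, had 180 to 255 FPKM in TMAO-treated lungs and 272 to 302 FPKM in LPS-ALI lungs, 1 of these 3, with a difference of -0.36 (limma adjusted p 0.998). Rps3a1, a small-subunit protein, had 845 ± 75 FPKM in TMAO-treated lungs (SD, n = 5) and 1064 ± 324 FPKM in LPS-ALI lungs (SD, n = 4). The 79 tested mitochondrial ribosomal proteins, which serve the separate ribosome of the mitochondrion, had a median of -0.26, with 73 below 0 and 0 past the threshold. Translation elongation factors had -0.16 over 7 genes, initiation factors -0.27 over 29 and the other TOP mRNAs -0.20 over 22, again with 0 past the threshold. These medians moved with TMAO 5. Without it the mitochondrial ribosomal proteins were at -0.10, the elongation factors at -0.07, the initiation factors at 0.02 and the other TOP mRNAs at -0.04, when all tested genes had a median of 0.05.

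The median of the genes that build the ribosome lay further below 0 than that of the ribosomal proteins. The 37 tested ribosome biogenesis genes had a median difference of -0.61, or -0.44 relative to the median gene, with 36 below 0. None passed the adjusted threshold, and 5 had an unadjusted limma p under 0.05, each lower, beside 2.93% of all tested genes. Gnl3, the nucleolar GTPase nucleostemin, had 9.09 ± 3.28 FPKM in TMAO-treated lungs (SD, n = 5) and 19.2 ± 5.06 FPKM in LPS-ALI lungs (SD, n = 4), with no overlap. Nop56, a core protein of box C/D snoRNPs, had 9.03 ± 3.89 FPKM in TMAO-treated lungs and 18.25 ± 6.68 FPKM in LPS-ALI lungs. Myc, the transcription factor that drives both classes, had 1.36, 1.31, 1.85, 1.31 and 0 FPKM in TMAO 1 to 5, against 3.96, 4.17, 5.14 and 4.04 FPKM in LPS-ALI 1 to 4. The groups did not overlap, and the difference was -1.37 with an unadjusted limma p of 0.00098 and an adjusted p of 0.998. Without TMAO 5 and LPS-ALI 4 the biogenesis median was -0.09, or -0.18 relative to the median gene, close to the ribosomal proteins in the same libraries. The difference between these lists was not tested.

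RNA polymerase I genes had a median of -0.24 over 14 genes and snoRNA hosts -0.37 over 15, with 0 past the threshold in either. RNA polymerase I was at -0.07 without TMAO 5 and -0.26 without LPS-ALI 4. The snoRNA hosts were at -0.40 without TMAO 5 and -0.14 without LPS-ALI 4. The 19 genes of mTORC1 and of TOP control had -0.20 with all libraries and -0.05 without TMAO 5, and Rps6kb2, an S6 kinase, had 5.83 ± 2.79 FPKM in TMAO-treated lungs and 14.5 ± 10.3 FPKM in LPS-ALI lungs, with LPS-ALI 3 at 28.8 FPKM. Snhg1, a snoRNA host with a TOP start, had 20.1 to 27.5 FPKM in TMAO-treated lungs, 26.7 to 27.7 FPKM in LPS-ALI 1 to 3 and 87.3 FPKM in LPS-ALI 4, and its difference was -0.68.

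**Figure D5:**
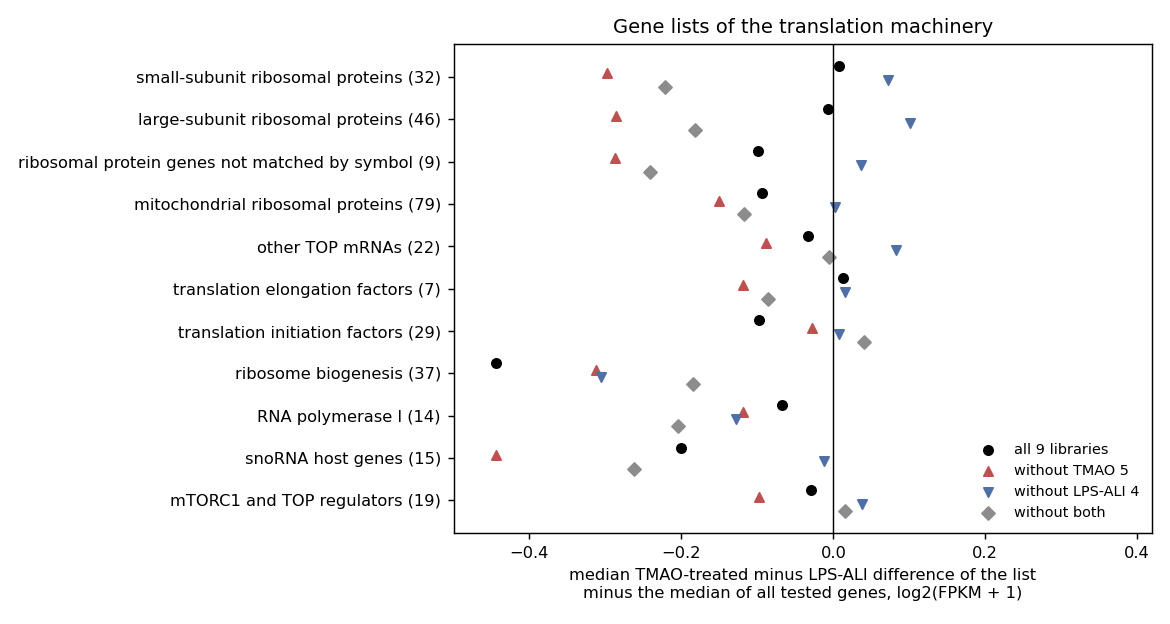
Median difference between TMAO-treated and LPS-ALI lungs of each list of the translation machinery, minus the median of all tested genes, in log2(FPKM + 1), with all 9 libraries, without TMAO 5, without LPS-ALI 4 and without both (number of tested genes in brackets). The ribosomal protein genes of both subunits lie near 0 with all 9 libraries and at -0.30 and -0.29 without TMAO 5, and ribosome biogenesis lies at -0.44 with all 9 libraries.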

How the data were processed

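RNA sequencing libraries of lung tissue from 5 mice with LPS injury and TMAO and 4 with LPS injury alone, were analysed from the FPKM values that the authors deposited, 1 column per mouse and 2 decimals. Per the labels' protocols, ribosomal RNA was depleted before a NEBNext library was made. Per the submitters' processing notes the software was fastp, HISAT2, SAMtools and featureCounts on build mm10. No source used here gives versions, annotation, strand setting or gene lengths. Read totals are unknown. Relative depth was estimated from the commonest ratio of low FPKM values between library pairs, and 36 of 36 pairs lay within 0.1 log2 units of the fitted depths. Groups came from the sample group in the labels.

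FPKM are not counts, so log2(FPKM + 1) was tested with limma 3.58.1 (R 4.3.3), using its mean-variance trend and two-sided tests, over the 11817 genes that reached 1 FPKM in 4 or more libraries, with Benjamini-Hochberg adjustment over all of them and a threshold of 0.05. A log2 difference on this scale understates the change of low genes. Single genes also had an exact permutation test, two-sided, of the difference in means over every regrouping of the libraries. The test was tried on simulated data. No set test was run. Gene coordinates and 50-base overlaps between transcripts came from GENCODE M21, to which 52073 of 52381 identifiers matched. Start windows came from RefSeq.

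The genes, lists and tests were chosen with earlier results of these data known. The genes named were the 5 highest of each subunit, the 5 smallest unadjusted p in each direction, all with no overlap, the 3 above and 3 below the median ribosomal protein gene by the largest margin, the role lists, the 3 lowest, and up to 3 by unadjusted p from each other list. The alternatives were other pseudocounts, filters, scalings, weights, a replicate block and libraries left out, and the addition of copies was chosen after seeing the data. Results of some genes that this rule names are not reported here.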

Additional observations from a re-analysis of the deposited data

Results flagged for a closer look

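For the named ribosomal protein genes, 62 groups of values were searched for a library far from the others of its group by Dixon's test. Such a library was found in 8 groups, where chance alone gives about 1 in 20 for a single group. In 5 of them the library was TMAO 5, above the other 4 TMAO-treated lungs: Rpl23a at 1889 FPKM, against 1175 to 1289 FPKM in the other 4, Rpl26 at 1703 FPKM, Rps24 at 2175 FPKM, Rps27 at 2967 FPKM and Rps29 at 2619 FPKM. Rplp0 was high in TMAO 4, at 820 FPKM, against 630.0 to 682 FPKM in the other TMAO-treated lungs. LPS-ALI 3 was low for Rps15 at 1142 FPKM, against 1465 to 1494 FPKM in the other LPS-ALI lungs, and for Rps27l at 159 FPKM. The 5 genes high in TMAO 5 share that library, and Rps15 and Rps27l share LPS-ALI 3, so they are not separate observations. All 62 groups come from the same 9 libraries, so the 8 cannot be read against 1 in 20 as if independent.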

How the results depend on the processing

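Over all alternatives, no ribosomal protein gene passed the adjusted threshold. Of the values that answer a comparison, 227 stayed within their spread and 23 moved. Of the values of single named genes, 210 kept direction and 15 reversed. All-gene counts past the threshold were 51 with library weights and 0 to 3 when single libraries were left out. With library weights, 16 of 78 ribosomal protein genes were lower at an unadjusted limma p under 0.05, beside 8.91% of all tested genes. Only 1 was higher, beside 4.92%, and the smallest limma adjusted p of a ribosomal protein gene was 0.219. TMAO 5 had the lowest weight, 0.088. The count of ribosomal protein genes lower without overlap was 2 as reported, beside 1.36% of all tested genes. It was 0 after rescaling to TPM, beside 49 of 11817 tested genes. With median-of-ratios scaling and with quantile normalization it was 0, beside 1.67% and 1.6%. It was 1 without mitochondrial genes, beside 78 of 11802, and 1 after division by the median ribosomal protein gene, beside 78 of 11817. It was 6 without LPS-ALI 3 and 4, beside 5.98%, and 10 without TMAO 5 and LPS-ALI 4, beside 2.66%. Leaving out single libraries gave 2 to 10, beside 172 to 486 of all genes tested in each fit. The count higher was 1, Rpl5, in each of the 2 joint settings, beside 0.474% and 6.04% in that order. Median-of-ratios scaling gave median differences of 0.058 for the large-subunit and 0.072 for the small-subunit genes. Differences below 0, found for 71 of 78 genes as reported, were then found for 21 of 78, beside 51.0% of all tested genes. With quantile normalization they were found for 35 of 78, beside 49.1%, and large minus small came to 0.018. Relative to the median gene, the small-subunit median was -0.21 with library weights and -0.22 without TMAO 5 and LPS-ALI 4, with genes filtered anew, and leaving out single libraries gave -0.29 to 0.11 for the large and -0.30 to 0.14 for the small subunit. With the replicate number as a block, TMAO 5 has no partner and is dropped in effect. The relative medians were then -0.29 and -0.30, with 0 calls. Deviations from the group means correlated at r of 0.06, -0.01, -0.03 and -0.13 between same-numbered mice. Between mice of different numbers r was -0.23 to 0.29. The labels do not say whether the numbers pair the mice, and these few values cannot settle it.

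Differences that turned below 0 were those of genes near 0. With library weights these were Rpl29 at -0.11 and Rpl31 at -0.16. With the replicate block they were Rpl29 at -0.0031, Rpl31 at -0.11 and Rps15a at -0.070, the same as without TMAO 5. Leaving out single libraries gave ranges of -0.13 to 0.16 for Rpl29, -0.11 to 0.15 for Rpl31, -0.055 to 0.31 for Rpl5 and -0.070 to 0.24 for Rps15a. Without LPS-ALI 3 and 4, Rpl29 was at -0.055. Without TMAO 5 and LPS-ALI 4, Rpl31 was at -0.0015. With copies added Rpl5 was at -0.094. The causes were not tested. FPKM carry no read totals, so no counting interval could be given.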
